A study of Mus musculus with 6 samples.

Results

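Integrins and laminins were examined in the pancreas of young mice that carried a Prox1 transgene. Members were the genes whose array annotation gave a probe set 1 symbol of the form Itga, Itgb, Lama, Lamb or Lamc followed by the chain's number or letter. Each gene was read by its brightest probe set, judged by the mean of all 6 arrays. The rule found 34 genes with 73 probe sets, of 18194 genes and 45101 probe sets in all. They were 24 integrin chains (16 alpha and 8 beta) and 10 laminin chains (5 alpha, 3 beta and 2 gamma). Of the integrins, 7 are carried mainly by leukocytes (Itgal, Itgam, Itgax, Itgae, Itga4, Itgb2 and Itgb7) and were kept apart from the 16 matrix receptors. The platelet chain Itga2b was given singly. Itga11 and Itgad had no probe set with that single symbol and were not analysed here.

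The samples were whole pancreas from mice of the NMRI strain, taken at postnatal day 15 and run on 1 Affymetrix 3' array each. The 3 Prox1-OE samples had the genotype Jojo-Prox1,Ngn3-cre, and the 3 control samples had Ngn3-cre alone, so all 6 carried the Cre. Ngn3 drives this Cre in endocrine progenitors, and the series asked what overexpression of the transcription factor Prox1 in beta cells does to gene expression. The labels leave unsaid whether replicates are separate animals, and p-values cover the spread of these arrays, which may be technical. Whole pancreas is mostly acinar tissue, and the acinar enzyme gene Cpa1 read 14.57 to 14.69. In such bulk samples, fewer cells of a type and less RNA per cell cannot be told apart.

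All values are log2 units, so a difference is a log2 fold change, and it is always Prox1-OE minus control. Array medians lay between 4.38 and 4.42. The first principal component set replicate 1 of Prox1-OE apart from the other arrays, at -28.7 against -4.37 to 16.7, and the second set control replicate 3 apart, at 21.3. Prox1 itself averaged 5.20 in Prox1-OE and 5.14 in control. The sources used here do not say whether its probe set reads the transgene, so this value checks no label.

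Integrins are receptors built from 1 alpha and 1 beta chain. They bind matrix proteins or proteins on other cells and link them to the actin cytoskeleton through adapters such as talin. Laminins are trimers of 1 alpha, 1 beta and 1 gamma chain and form the sheet of the basement membrane. In the pancreas, basement membrane surrounds acini, ducts and the blood vessels of the islets, and beta cells bind laminin through integrins that contain Itgb1. Leukocyte integrins mediate adhesion to vessel walls and to other immune cells.

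None of the 34 members passed an adjusted p of 0.05 in the limma fit of all genes, where 5 of 18194 genes (0.0275%) did. Their limma adjusted p-values ran from 0.690 to 0.997. At an unadjusted limma p of 0.05, 1 member was higher in Prox1-OE (Itgam) and 0 were lower. Among all genes, 2.94% were higher and 3.7% lower by that rule. The groups of 3 arrays did not overlap for 3 members that were higher (Itgam, Itgb1 and Lama4) and 1 that was lower (Itgb6). Over all genes these shares were 5.05% higher and 7.02% lower. Of the members, 18 had a positive difference and 16 a negative one, against 8403 positive of 18194 genes. The median difference was 0.03, against -0.01 for all genes. The median size of the difference without its sign was 0.0898 for members and 0.0903 for all genes.

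A p that misses the threshold does not show that the groups were alike, and the intervals show what remained possible. For 25 of the 34 members (73.5%), the 95% interval of the difference lay within 0.5 of 0 in both directions. The share over all genes was 82.1%. For 33 of 34 it lay within 1. The exception was Itga4, whose interval reached 1.01. Of the 34 members, 18 (52.9%) were above the median gene. RMA narrows differences of dim probe sets, so for dim members a narrow interval bounds the array signal and may not bound a change in transcript.

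**Figure D1:**
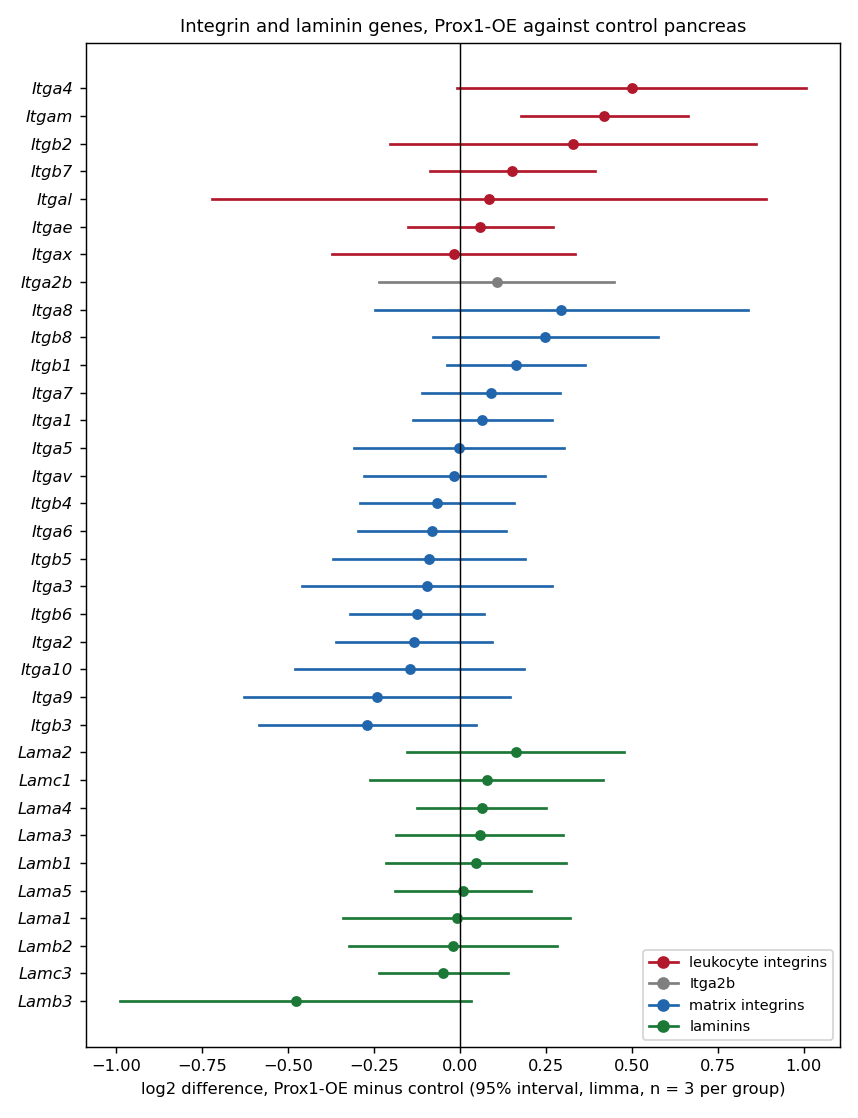
Log2 difference, Prox1-OE minus control, for each of the 34 genes (points) with its 95% interval from limma (bars), 3 arrays a group, coloured by family. Itgam, at 0.42, is the only gene whose interval leaves 0 out; Itga4 at 0.50 and Lamb3 at -0.48 have the largest differences and wide intervals.

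Itgam, the alpha chain of the complement receptor on myeloid cells (CD11b), had the smallest p of the members. Its promoter is shown because PU.1, a transcription factor of myeloid and B cells, is known to act there. The promoter of Itgax, which encodes the alpha chain CD11c of dendritic cells and lies on the same strand of the same chromosome, is set beside it. Both are from RefSeq for the mouse assembly GRCm38.p6, from 250 bases before to 50 bases after the gene's start. They are written 5' to 3' on the plus strand, at chr7:128062390-128062689 for Itgam and chr7:128129300-128129599 for Itgax. Capitals mark GAGGAA, a core sequence bound by PU.1, or TTCCTC, the same letters read on the other strand.

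Itgam: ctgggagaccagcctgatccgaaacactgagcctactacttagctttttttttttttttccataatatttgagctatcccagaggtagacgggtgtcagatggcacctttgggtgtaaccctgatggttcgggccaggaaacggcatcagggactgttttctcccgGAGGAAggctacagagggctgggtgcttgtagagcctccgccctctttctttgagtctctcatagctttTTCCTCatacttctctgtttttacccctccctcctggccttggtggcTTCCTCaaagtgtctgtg
Itgax: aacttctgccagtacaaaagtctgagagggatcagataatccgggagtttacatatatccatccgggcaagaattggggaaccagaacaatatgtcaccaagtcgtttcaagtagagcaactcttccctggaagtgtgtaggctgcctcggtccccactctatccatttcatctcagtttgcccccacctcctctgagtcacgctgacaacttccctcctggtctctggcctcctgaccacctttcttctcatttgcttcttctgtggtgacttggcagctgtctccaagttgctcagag

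The Itgam promoter held 3 matches, 1 on the plus strand and 2 on the minus strand, and the Itgax promoter held 0. A promoter of this length was found for 22 of the 34 members, with 25 promoters in all. The motif was in 13 of these 25, in 2 of the 4 promoters of leukocyte integrins, and in 28.3% of 32841 promoters searched. A match describes the letters only, and no match says only that these letters are not in this window.

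Itgam read 3.43, 3.53 and 3.21 on Prox1-OE replicates 1, 2 and 3, and 3.05, 2.91 and 2.96 on the controls. All 3 Prox1-OE arrays were above all 3 controls, and replicate 1 did not stand out. The difference was 0.42 ± 0.11 (SE, n = 3 a group; 1.34-fold), with a 95% interval of 0.18 to 0.66. The limma p was 0.0039 before and 0.690 after adjustment over all genes. The probe set was dim: its mean was at percentile 9.09 of all genes and below every array's median. Leaving out each array in turn gave 0.35 to 0.51.

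Itga4, the alpha chain that binds VCAM1 and fibronectin on lymphocytes and monocytes, read 5.84, 5.11 and 5.10 in Prox1-OE and 5.18, 4.75 and 4.63 in control. Replicate 1 of Prox1-OE was well above the rest, and 1 control overlapped the other Prox1-OE arrays. The difference was 0.50 ± 0.22, with an interval of -0.01 to 1.01 and a limma adjusted p of 0.753. Without replicate 1 of Prox1-OE it was 0.26. All 5 probe sets of Itga4 had a positive difference, from 0.07 to 0.50, and the groups did not overlap on 1 of them, which was dim. Only the probe set that stands for the gene was above the median of all probe sets.

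Itgb2, the beta chain shared by Itgal, Itgam and Itgax, read 7.32, 6.43 and 6.91 in Prox1-OE and 6.66, 6.22 and 6.81 in control. The groups overlapped, and the difference of 0.33 ± 0.23 was 0.11 without replicate 1 of Prox1-OE. Itgal, which pairs with Itgb2 to bind ICAM proteins, read 7.18, 5.96 and 5.99 in Prox1-OE and 5.93, 6.11 and 6.84 in control. The other two Prox1-OE arrays lay among the controls. Its difference was 0.08 ± 0.35, and -0.32 without replicate 1 of Prox1-OE, the widest interval of the members at -0.72 to 0.89.

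Itgb7, which pairs with Itga4 or Itgae in lymphocytes of the gut, read 6.37, 6.08 and 6.25 in Prox1-OE and 6.08, 5.99 and 6.16 in control, a difference of 0.15 ± 0.10. Its groups overlapped, and it was 0.08 without replicate 1 of Prox1-OE. Itgae, which binds E-cadherin, and Itgax had differences of 0.06 ± 0.09 and -0.02 ± 0.15, with levels of 3.24 to 3.46 and 3.26 to 3.77 over the 6 arrays.

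As a group, 6 of the 7 leukocyte integrins had a positive difference and their median was 0.15, against -0.01 for all genes. Each of the 7 was highest on a Prox1-OE array, for 5 of them replicate 1, and lowest on a control array. How often this held over all genes was not counted. Relative to the control mean, the 7 averaged 0.51, 0.05 and 0.10 on Prox1-OE replicates 1 to 3, and -0.01, -0.09 and 0.11 on the controls. The level on replicates 2 and 3 thus lay within the range of the controls. The median was 0.11 without replicate 1 of Prox1-OE, 0.29 when replicate 2 of that group was left out, 0.28 when replicate 3 was, and 0.36 when control replicate 3 was.

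Of 18 listed leukocyte markers that are not integrins 17 were measured, and 9 of them were above the median gene. Their differences were positive for 13 and negative for 4, Cd3e, C1qa, Cd79a and Cd8a, and none passed the adjusted threshold. At an unadjusted limma p of 0.05, 7 of the 17 were higher and 0 lower, against 2.94% and 3.7% of all genes. The groups did not overlap for 8 that were higher and 0 that were lower, against 5.05% and 7.02% of all genes. This list, too, was chosen with earlier results known. Relative to the control mean they averaged 1.45, 0.18 and 0.59 on the Prox1-OE arrays and 0.01, 0.05 and -0.06 on the controls. Their summed level, as log2, was 11.64, 10.23 and 10.67 in Prox1-OE and 10.26, 10.14 and 9.98 in control, so replicate 2 of Prox1-OE lay within the controls. Ptprc (CD45), carried by nearly all leukocytes, read 8.92, 5.55 and 7.56 against 5.38, 5.21 and 5.19. All Prox1-OE arrays were above the controls for Ptprc, with a difference of 2.08 ± 0.69 and a limma adjusted p of 0.690. The fit was repeated with the mean of these 17 genes as a covariate. The difference was then 0.44 ± 0.16 for Itgam, 0.04 ± 0.22 for Itga4, -0.14 ± 0.24 for Itgb2 and -0.63 ± 0.36 for Itgal. The median of the 7 leukocyte integrins was then 0.0013, against 0.15 without the covariate. This marker mean was itself higher on every Prox1-OE array than on every control, so the fit cannot separate it from the group. The part of leukocytes in these differences was not tested. Lymphatic vessel genes, 4 measured, averaged 0.85, 0.23 and 0.44 on the Prox1-OE arrays and -0.10 to 0.15 on the controls, and their part in these differences was not tested.

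**Figure D2:**
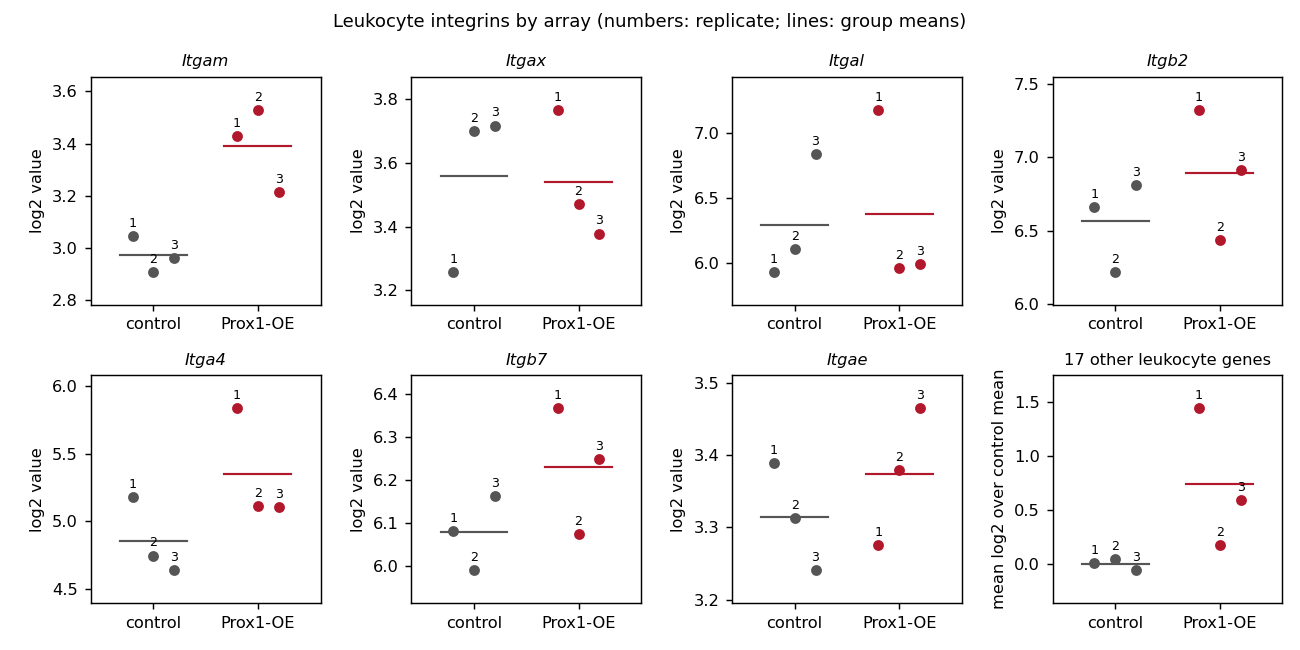
Log2 value on each of the 6 arrays (points, with the replicate number; lines are group means) for the 7 leukocyte integrins, each on its own axis that does not start at 0; the last panel is the mean of 17 other leukocyte genes minus its control mean. Replicate 1 of Prox1-OE is highest for 5 of the 7 integrins and for the marker mean, at 1.45; Itgam is above the controls on all 3 Prox1-OE arrays.

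Of the 16 matrix integrins, 5 had a positive difference and 11 a negative one. Their median was -0.07, against -0.01 for all genes, and -0.02 without replicate 2 of Prox1-OE. No matrix integrin passed the adjusted threshold, and 0 passed at an unadjusted p of 0.05.

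Itgb1, the beta chain that most matrix alpha chains pair with, read 9.15, 9.02 and 9.02 in Prox1-OE and 8.97, 8.86 and 8.87 in control. Every Prox1-OE array was above every control, by a small margin. The difference was 0.16 ± 0.09, with an interval of -0.04 to 0.36 and a limma adjusted p of 0.774. A second probe set of Itgb1 read 7.83, 7.74 and 7.68 against 7.59, 7.46 and 7.57, again with no overlap and a difference of 0.21. Another one above the median had 0.09, while the 3 dim ones ran from -0.11 to 0.05.

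The 4 chains of laminin receptors had groups that overlapped. Itga6, the alpha chain of the main epithelial laminin receptors, had a bright probe set, at percentile 97.5 of all genes. Signals of different probe sets depend on the probes and do not rank transcript levels. It read 10.31, 10.34 and 10.40 in Prox1-OE and 10.40, 10.33 and 10.57 in control, and the ranges overlapped. Its difference was -0.08 ± 0.09, with an interval of -0.30 to 0.13, and its other probe set gave -0.13. Itgb4, the beta chain that joins Itga6 in hemidesmosomes, had -0.07 ± 0.10. Itga3, another laminin-binding chain, had -0.10 ± 0.16 with an SD of 0.01 between controls and 0.34 between Prox1-OE arrays, which ran from 6.05 to 6.72. Itga7, a laminin receptor chain best known in muscle, had 0.09 ± 0.09 at a dim level, 3.77 to 3.97 on the 6 arrays.

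The collagen receptor chains Itga1, Itga2 and Itga10 had differences of 0.07, -0.13 and -0.15, with groups that overlapped. All 3 intervals included 0 and lay within 0.5 of it.

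Among chains that bind fibronectin, vitronectin and other proteins with an RGD sequence, Itgb3 had the smallest p. It read 4.67, 4.60 and 5.09 in Prox1-OE and 4.95, 5.07 and 5.15 in control. A pair of Prox1-OE arrays lay below all controls and the other among them. The difference was -0.27 ± 0.14, with an interval of -0.59 to 0.05. A second probe set of Itgb3 gave 0.26, the opposite sign, with readings of 4.65, 4.57 and 4.94 against 4.58, 4.37 and 4.42. The direction for Itgb3 therefore depended on the probe set.

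Itgb6, an epithelial beta chain that activates latent TGF-beta with Itgav, was the only member lower without overlap. It read 3.72, 3.82 and 3.77 in Prox1-OE and 3.87, 3.97 and 3.84 in control, at a dim level. The difference was -0.13 ± 0.09, with an interval of -0.32 to 0.07. Itgb8, the other partner of Itgav in TGF-beta activation, read 5.42, 4.97 and 4.93 against 4.94, 4.74 and 4.90. Replicate 1 of Prox1-OE was the high array, and the difference was 0.25 ± 0.14, or 0.09 without that array.

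Itga9, which binds tenascin and osteopontin, read 4.95, 4.62 and 5.21 in Prox1-OE and 5.35, 4.93 and 5.23 in control. The groups overlapped and the difference was -0.24 ± 0.17, or -0.09 without replicate 2 of Prox1-OE. Itga8, the nephronectin receptor chain of mesenchymal cells, had 5.31, 4.55 and 4.37 against 4.60, 4.57 and 4.18. Only replicate 1 of Prox1-OE was above the controls, and the difference was 0.29 ± 0.24, or 0.01 without that array. The fibronectin receptor chain Itga5, the shared partner Itgav and its beta chain Itgb5 had differences of 0.00, -0.02 and -0.09. The levels of Itgav, 8.44 to 8.75 over the arrays, gave an interval of -0.28 to 0.25.

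Itga2b, the platelet fibrinogen receptor chain, had a difference of 0.11 ± 0.15 with overlapping groups. The value was 0.02 without replicate 1 of Prox1-OE or control replicate 2, 0.04 without replicate 3 of Prox1-OE and 0.26 without its replicate 2. The 7 platelet genes, 6 of them below the median gene, averaged 0.02, 0.08 and 0.02 above the control mean on the Prox1-OE arrays and -0.05 to 0.08 on the controls. Their summed level, as log2, was 8.53 to 8.69 in Prox1-OE and 8.30 to 8.41 in control, with no overlap. Pf4, a chemokine of platelets, was the brightest of the 7, at 7.63 to 8.23, and so weighed most in that sum. It had the largest difference of the 7, 0.34 ± 0.10, with a limma adjusted p of 0.690. Of the 7, 5 had a positive difference and 2 a negative one. These 2 were Ppbp at -0.27 ± 0.15, with overlap, and Gp1bb at -0.19 ± 0.09, lower with no overlap. The part of the platelet genes in the Itga2b value was not tested.

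**Figure D3:**
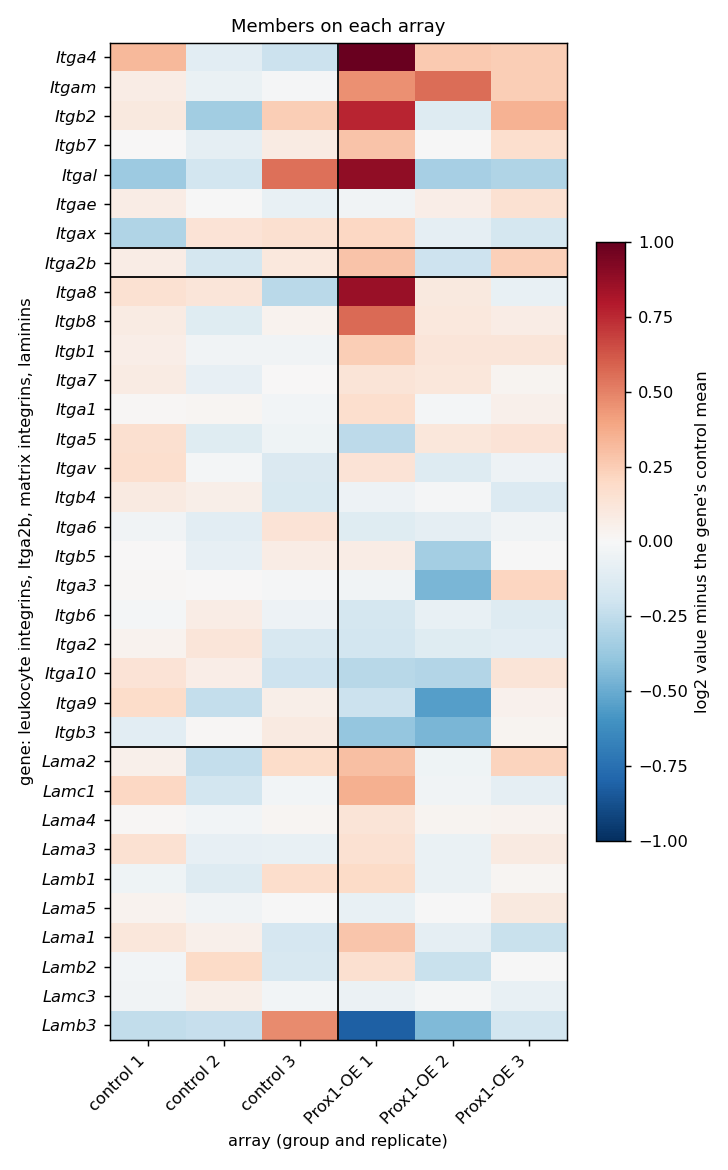
Heatmap of the 34 genes (rows, by family) on the 6 arrays (columns), each cell the log2 value minus the mean of the 3 controls. Replicate 1 of Prox1-OE holds the highest value of 16 of the 34 genes, including 5 of 7 leukocyte integrins and 5 of 10 laminins. It holds the lowest value of 6 of the 34. These shares were not counted over all genes, so they are not particular to the members as far as shown.

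Laminin chains had differences of both signs, 6 positive and 4 negative, with a median of 0.03. That median was -0.03 without replicate 1 of Prox1-OE, and also with the probe sets of a gene averaged. Lamb3, a beta chain of the epithelial laminin that anchors hemidesmosomes, had the largest. It read 5.40, 5.77 and 6.03 in Prox1-OE and 5.97, 5.98 and 6.68 in control. Control replicate 3 was the highest array and replicate 1 of Prox1-OE the lowest. The difference was -0.48 ± 0.22, with an interval of -0.99 to 0.03 and a limma adjusted p of 0.755. It was -0.24 without control replicate 3 and -0.31 without replicate 1 of Prox1-OE. Lama3, the alpha chain of the same trimer, had 0.06 ± 0.11 on its brighter probe set. On its other probe set, also dim, Lama3 read 3.55, 3.28 and 3.41 against 3.59, 3.64 and 3.82, lower on every Prox1-OE array, a difference of -0.27.

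Chains of more widespread laminins had smaller differences. Lama2, the alpha chain of muscle and nerve, read 8.35, 8.01 and 8.28 in Prox1-OE and 8.11, 7.82 and 8.24 in control. The groups overlapped, with a difference of 0.16 ± 0.14, or 0.04 without control replicate 2. Lama4, the alpha chain of vessel walls, read 7.42, 7.32 and 7.32 against 7.31, 7.26 and 7.31. Its groups did not overlap, but the difference was only 0.06 ± 0.08. Its other probe set, which was dim, went the other way, also with no overlap, at -0.24. Lama5 and Lama1 had 0.01 and -0.01.

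Lamb1, the beta chain of most embryonic and vascular laminins, read 9.02, 8.77 and 8.85 in Prox1-OE and 8.79, 8.70 and 9.01 in control. The arrays of the groups interleaved, and the difference was 0.05 ± 0.11. Its other 3 probe sets gave 0.33, -0.27 and 0.10. Lamc1, the gamma chain of most laminins, read 6.40, 6.01 and 5.96 against 6.25, 5.86 and 6.02, a difference of 0.08 ± 0.15. Lamb2 and Lamc3 had -0.02 and -0.05.

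Several probe sets of a gene often disagreed. Of 20 members with more than 1 probe set, 7 had the same sign on all of them. Counting only probe sets above the median of all probe sets, 4 of 10 such members did (Itga6, Itga9, Itgal and Itgb1). None of the 73 probe sets passed an adjusted p of 0.05 in the limma fit of all 45101 probe sets.

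**Figure D4:**
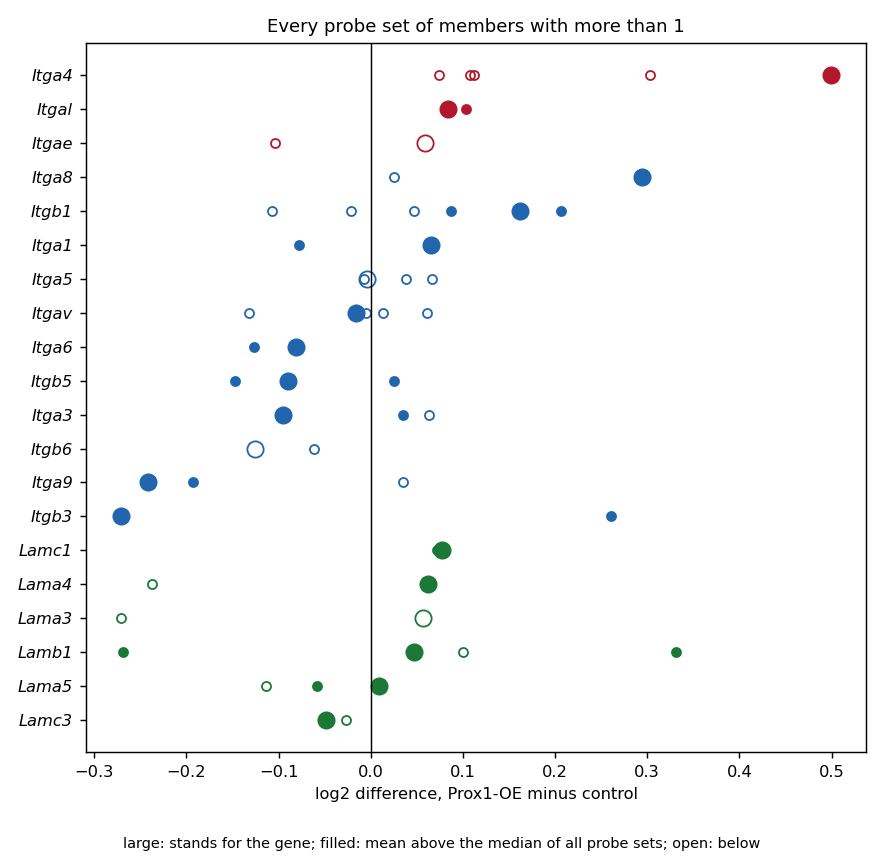
Log2 difference, Prox1-OE minus control, of every probe set of the 20 members with more than 1 (points; the large one stands for the gene, open ones are below the median of all probe sets). Itgb3 and Lamb1 have bright probe sets on both sides of 0, as do Itga1, Itga3, Itgb5 and Lama5. All 5 of Itga4 are positive, but only the large one is above the median.

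Of other genes of the pathway, none passed the adjusted threshold. Among 23 measured adapters and signalling proteins of integrins, of 25 listed, 17 had a positive difference and the median was 0.05. At an unadjusted p of 0.05, 1 of the 23 was higher and 0 lower, against 2.94% higher and 3.7% lower over all genes. That gene was Fermt3, the kindlin of blood cells, which activates leukocyte and platelet integrins. Fermt3 read 7.29, 5.51 and 6.35 in Prox1-OE and 5.36, 5.43 and 5.15 in control, a difference of 1.07 ± 0.37 with a limma adjusted p of 0.694. Its order over the 3 Prox1-OE arrays was that of the leukocyte marker mean, and the part of leukocytes in its difference was not tested. Talin 1 (Tln1) and vinculin (Vcl), which link integrins to actin, had 0.23 ± 0.10 with no overlap and 0.31 ± 0.15 with overlap.

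Among 19 genes of the basement membrane and of laminin binding, all measured, 11 had a positive difference and the median was 0.04. The laminin receptor Bcam was the only one past an unadjusted p of 0.05, and it was lower, as were 3.7% of all genes. Bcam read 4.31, 4.42 and 4.61 in Prox1-OE and 4.67, 4.76 and 4.96 in control, with no overlap and a difference of -0.35 ± 0.12 (limma adjusted p of 0.690). The syndecan Sdc4 had 0.25 ± 0.11 and the collagen IV chain Col4a4 -0.20 ± 0.09, both with no overlap.

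Of 24 other ligands of integrins 21 were measured, and 17 had a positive difference, with a median of 0.13. At an unadjusted p of 0.05, 3 of the 21 were higher and 0 lower, against 2.94% and 3.7% of all genes, all 3 with limma adjusted p of 0.690 or above. Mfge8, which bridges dying cells to Itgav receptors, read 8.44, 8.34 and 8.81 in Prox1-OE and 7.92, 8.20 and 8.03 in control, 0.48 ± 0.14 with no overlap. Tenascin C (Tnc), a ligand of Itga9, read 4.96, 4.09 and 4.93 against 3.94 to 4.03 on the 3 controls, a difference of 0.67 ± 0.22. Replicate 2 of Prox1-OE was close to the controls for Tnc. Fibronectin (Fn1) read 9.74, 9.18 and 9.30 against 8.91, 8.82 and 9.23, with overlap and a difference of 0.42 ± 0.17. Fibroblast and stellate cell genes averaged 0.60, 0.03 and 0.12 above the control mean on the Prox1-OE arrays, and -0.19 to 0.15 on the controls. Their part in these differences was not tested.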

How the data were processed

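Each of the 6 samples was measured on 1 array, with 3 Prox1-OE and 3 control samples. The deposited values are on the log2 scale, 1 per probe set. The submitters' processing notes name RMA and Partek 6.5, without settings. RMA subtracts background and gives all arrays the same distribution of probe signals before these are combined per probe set. The combined values still differed slightly between arrays, as the array medians show. RMA also narrows differences of dim probe sets. Gene names came from the platform annotation, and promoters from RefSeq tables of GRCm38.p6. Of 45101 probe sets, 34958 had 1 gene symbol, 932 several and 9211 none, and only the first were used. The comparison used limma 3.58.1 (lmFit, then eBayes) under R 4.3.3, two-sided, with no covariate or filter and with Benjamini-Hochberg adjustment over 18194 genes; errors are moderated standard errors. The fit was tested on simulated data. The number of arrays limits the precision.

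Members and lists were chosen with earlier results of these data known. By rule, values on every array were given for members with an unadjusted p under 0.05 and the next 8 by p. They were also given for the laminin of each chain type and the alpha and beta integrin with the highest signal. Of each pathway list, the 3 genes with the smallest p were named, not all with their array values. Itgb2, Itgal, Itgae, Itgax, Itga8, Lama3, Lama4, Ptprc, Pf4, Ppbp, Gp1bb, the 4 lower leukocyte markers and both promoters with their motif were chosen after their values were seen. Other settings, whose effects are given at the end, concerned the choice of probe set, a filter on dim genes, normalization, the eBayes settings, array weights, the replicate block, a leukocyte covariate, the threshold and leaving out each array.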

Additional observations from a re-analysis of the deposited data

How the results depend on the processing

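No member passed an adjusted limma p of 0.05 under any setting tried, also at 0.1. Members higher at an unadjusted p of 0.05, 1 as reported, numbered 2 with probe sets of a gene averaged, with probe sets specific to 1 transcript, with quantile normalization again, with median centring and with trend and robust eBayes settings, 0 when only genes above the median were kept (Itgam is below it), and 1 to 3 when each array was left out. Members lower, 0 as reported, numbered 1 with specific probe sets and 0 to 2 when each array was left out. With the replicate block these counts were 3 higher and 2 lower. The unadjusted limma p with the block was 0.0021 for Itga4, 0.0055 for Lamb3 and 0.047 for Itgb3, against 0.053, 0.063 and 0.083 without it. Among members named by rule, it rose for Itgam (0.0070 from 0.0039), Itgb1, Itgb6 and Itga6. The lowest limma adjusted p of these members with the block was 0.451. Same-numbered arrays deviated together only weakly (correlations of 0.04, 0.14 and 0.11), though 6 of 6 arrays correlated best with their own number, and no label pairs them.

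The median of the matrix integrins was -0.0112 with probe sets averaged and -0.0116 with specific probe sets, and -0.0888 to -0.0151 when each array was left out. The leukocyte integrins then had 0.108 to 0.358, and 0.0013 with the leukocyte covariate. The laminin median was -0.0739 with that covariate, -0.000832 with specific probe sets and -0.0294 with probe sets averaged. The covariate turned the sign of 10 of the 34 members, and leaving out some 1 array turned 11. Among the 13 members named by rule, signs turned with the covariate for Itgb8 (-0.0334), Lamb1 (-0.0862) and Lamc1 (-0.165). Among these 13, they turned when 1 array was left out for Lamb1 (-0.0243 to 0.14) and Lamc1 (-0.0606 to 0.18). Among the same 13, other probe sets turned Itgb3 (0.261), Itgb1 (-0.0212 and -0.108), Itga9 (0.0355) and Lamb1 (-0.268). The cause was not tested. With 1 probe set per gene, 10 of the 13 kept their direction under every setting. Genes called among all genes, 5 as reported, numbered 2 with the block, 0 with the leukocyte covariate, without replicate 1 or 3 of Prox1-OE, 3 without replicate 2 of Prox1-OE, 1 without control replicate 1 or 2, and 4 to 5 under the other settings.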
